A study of Mus musculus with 9 samples.

Results

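Lung that was challenged with ovalbumin and given an agonist of EP3 was compared with lung that was challenged with saline, in a C57BL6 mouse model of asthma. The comparison was chosen by label: the 3 arrays titled as ovalbumin with EP3 agonist (agonist) were set against the 3 titled as saline, which is 6 of the 9 arrays of the series. The other 3 arrays hold lung challenged with ovalbumin without the agonist (OVA), and they entered the fit for its estimate of the spread. They also entered the scaling, the detection limit and the choice of which probe sets were tested and which represent a gene. Otherwise they are used here to place values. The titles of the OVA and agonist arrays carry a time of 24 h, and the saline titles carry no time. All 9 descriptions name the ovalbumin-induced asthma model, so the saline group is the control challenge within that model. The agonist group differs from the saline group by both the ovalbumin challenge and the agonist. The compound, its dose and route, the sensitisation scheme and the age and number of mice behind each array are not stated in the labels. It is likewise not stated that the 3 arrays of a group come from separate animals, so every p-value below measures the spread between these arrays, which may be technical.

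Ovalbumin is a chicken egg protein that serves as an experimental allergen: a sensitised animal that inhales it develops a type 2 immune response, in which eosinophils and alternatively activated macrophages enter the lung and airway epithelium turns to mucus production. EP3 is one of the receptors for prostaglandin E2, a lipid made from arachidonic acid by cyclooxygenases and prostaglandin E synthases. It couples mainly to the inhibitory class of G proteins and lowers cyclic AMP, and in the airways it is known from epithelium, smooth muscle, nerves and mast cells.

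Each array measured 12488 probe sets, of which 12422 are not manufacturer's controls and 7920 were tested. A value is an intensity, the brightness of a probe set after every array was scaled to one trimmed mean, and intensities up to 44.7 were treated as below the detection limit. Scaling factors ran from 0.741 to 1.29, between 59.6% and 60.6% of probe sets exceeded the limit on each array, and the median probe set differed between agonist and saline lung by -0.003 on the log2 scale. The arrays carried lung: the surfactant protein gene Sftpc read 12004, 14984 and 14673 in saline and 13955, 13842 and 14325 in agonist lung, the club cell gene Scgb1a1 10313, 13253 and 12262 and 11446, 11718 and 12167, and the alveolar type 1 cell gene Ager 4552, 4671 and 4862 and 4242, 4609.9 and 4099. None of these 3 separated the groups. Agonist replicate 3 stood apart from the other agonist arrays: its correlation over tested probe sets was 0.88 with agonist replicate 1 and 0.879 with agonist replicate 2, against 0.914 between those, and it was 0.904 with OVA replicate 3. On the first principal component, which held 36.1% of the variance, it lay at 11, with the other agonist arrays at -24 and -22.7, saline arrays between -30.9 and -21.1 and OVA arrays between 29.6 and 44.5. In whole-lung RNA, more cells of a type and more RNA per cell cannot be told apart.

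Few differences from saline lung passed the test in agonist lung. Of 7920 probe sets, 6 reached an adjusted p under 0.05 (limma, Benjamini-Hochberg over all 7920), which is 0.0758%. Was, Tpm2 and Cog5 rose, and Aanat, Slc25a25 and Adipor1 fell. Leaving out agonist replicate 2 gave 16 probe sets, 7 higher and 9 lower, and leaving out agonist replicate 3 gave 9, of which 7 were lower. The rises numbered 1 without agonist replicate 1 or without OVA replicate 2, and 5 without saline replicate 3. With only the 6 compared arrays in the fit, 0 probe sets rose and 4 fell. At an unadjusted p under 0.05, 287 probe sets were higher (3.62%) and 324 lower (4.09%). All 3 agonist arrays lay above all 3 saline arrays for 527 probe sets (6.65%) and below them for 557 (7.03%); with agonist replicate 3 left out, 2 arrays were compared with 3 and the numbers were 953 and 977. The OVA group differed from the same saline arrays at 752 probe sets (9.49%), and the agonist group from the OVA group at 218 (2.75%). These contrasts share arrays with the one described here and are given for scale only.

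**Figure D1:**
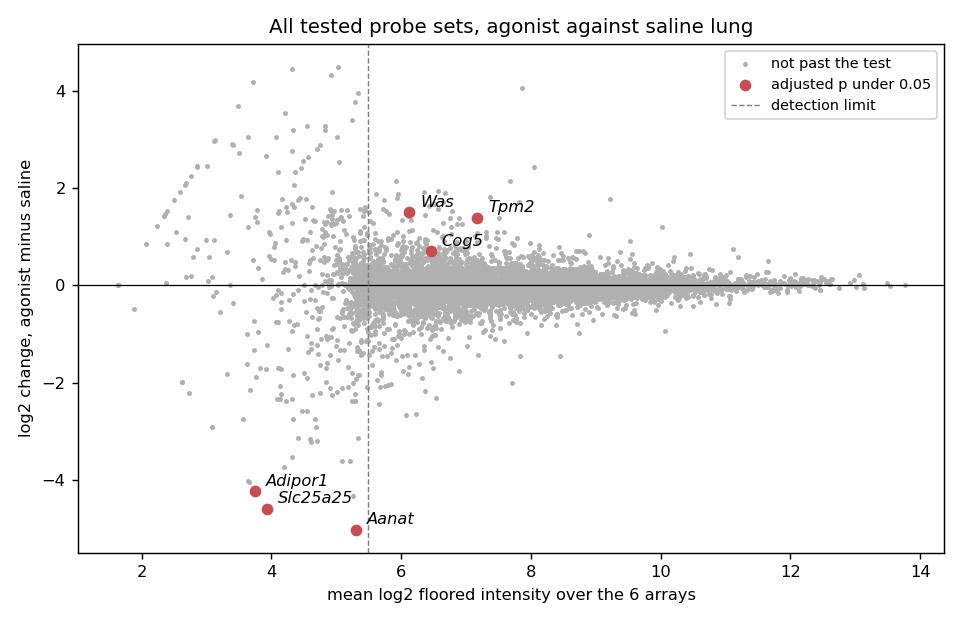
Log2 change between agonist and saline lung (y axis) against the mean log2 intensity of the 6 arrays, after low values were raised to the floor (x axis), for all 7920 tested probe sets. The 6 that passed are named; 3 lie above 0 and 3 below, and the dashed line marks the detection limit of 44.7.

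Was (probe set 92760_at) encodes the Wiskott-Aldrich syndrome protein, which links surface signals to actin branching in blood cells. It read 47.8, 38.6 and 38.5 in saline lung and 111, 106 and 139.9 in agonist lung. Every agonist array was above every saline array, and only 1 saline array exceeded the detection limit. The log2 change was 1.51 (SE 0.14, n = 3 and 3, limma adjusted p = 0.0101). Raising values below the limit to it gave 1.37. With only the 6 compared arrays in the fit Was did not pass (adjusted p = 0.101, with a range of 0.0064 to 0.126 over the settings tried). The OVA arrays read 127, 138 and 131. OVA and agonist lung therefore covered overlapping ranges, with a log2 difference of -0.16 between them (adjusted p = 0.508).

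Tpm2 (100605_at), a tropomyosin of smooth and slow muscle fibres, read 89.5, 80.7 and 98.5 in saline and 217, 231 and 257 in agonist lung, a log2 change of 1.39 (SE 0.16, adjusted p = 0.0496). The OVA arrays, at 179, 209 and 271, overlapped the agonist arrays. Tpm2 was the only one of 14 tested smooth muscle genes with all agonist arrays above saline. That is 7.14%, close to the 6.65% of all tested probe sets. The median log2 change of these 14 genes was 0.04. Acta2, the smooth muscle actin, read 1162, 1212 and 1092 in saline, 1989.7, 2324 and 1795 in OVA and 1272, 1193 and 1524 in agonist lung.

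Cog5 (103206_at) encodes a subunit of the conserved oligomeric Golgi complex, which tethers vesicles inside the Golgi. Its intensities were 72.4, 68.1 and 66.3 in saline, 93.2, 99.4 and 92.5 in OVA and 105, 118 and 113 in agonist lung. The 3 groups did not overlap, with the agonist arrays highest, and the log2 change from saline was 0.70 (SE 0.08, adjusted p = 0.0496). The calls of Tpm2 and Cog5 sat at the edge of the threshold. Cog5 passed under 5 of 18 other settings, with adjusted p between 0.0249 and 0.298, and Tpm2 under 9 of 19, between 0.0294 and 0.16. Leaving out any single agonist or saline array ended both calls.

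Aanat (92512_g_at) encodes the enzyme that acetylates serotonin on the way to melatonin. It read 241, 262 and 179.8 in saline lung, 38.2, 33.4 and 28.8 in OVA lung and 10.6, 2.24 and 10.2 in agonist lung. All 6 arrays from challenged lung were below the detection limit and all saline arrays were far above it, so agonist lung was at least 5.02-fold lower (adjusted p = 0.0101). With only the 6 compared arrays in the fit it did not pass (adjusted p = 0.101, with a range of 0.00045 to 0.101 over the settings tried).

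Slc25a25, a calcium-regulated carrier of ATP and phosphate across the inner mitochondrial membrane, and Adipor1, a receptor for adiponectin, fell from levels near the detection limit. The Slc25a25 probe set (98569_at) read 103, 54.7 and 74.0 in saline, 87.2, 82.4 and 62.4 in OVA and -4.20, -14.3 and -57.8 in agonist lung, at least 1.67-fold lower than saline (adjusted p = 0.000243). The Adipor1 probe set (160134_at) read 56.5, 57.9 and 59.6 in saline, 51.6, 37.3 and 35.2 in OVA and -35.8, -12.0 and -34.8 in agonist lung, at least 1.3-fold lower (adjusted p = 2.39e-05). In both genes all agonist intensities were negative, as can occur after background is subtracted. Both calls were made with the whole agonist group at the floor of 3.10, where it has no spread. With values held at the detection limit instead, the log2 changes were -0.74 and -0.38 and neither passed (adjusted p = 0.424 and 0.3). Over all settings tried, the adjusted p of Slc25a25 ran from 2.53e-05 to 0.424 and that of Adipor1 from 1.94e-06 to 0.3.

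**Figure D2:**
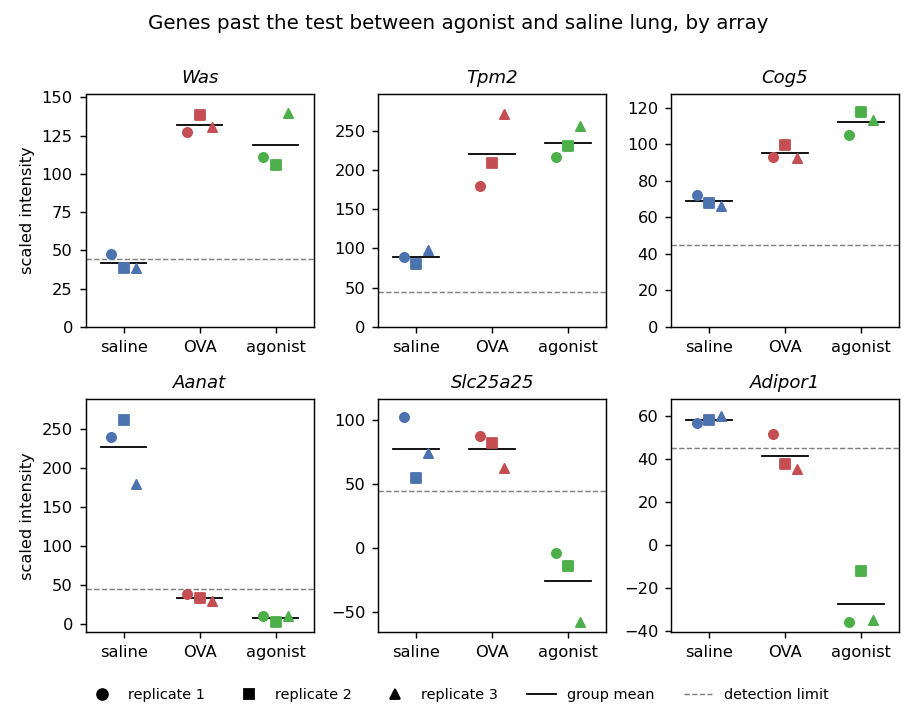
Scaled intensity (y axis, linear) of the 6 genes that passed between agonist and saline lung, in the 3 saline, 3 OVA and 3 agonist arrays, with symbols for replicate numbers, a line at each group mean and the detection limit dashed. Was and Tpm2 overlap between OVA and agonist lung, whereas Slc25a25 lies below 0 in agonist lung only, at -4.20, -14.3 and -57.8.

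The smallest adjusted p-values outside the threshold included those of 3 genes with higher values in agonist lung. Apobec1, a cytidine deaminase that edits RNA, read 76.5, 85.4 and 82.9 in saline and 134, 125 and 144 in agonist lung (log2 0.72, adjusted p = 0.112). Acad9, a mitochondrial factor of complex I assembly, was below the limit on all saline arrays and read 123, 87.6 and 75.9 in agonist lung, at least 2.09-fold higher (adjusted p = 0.112). Myo1f, an unconventional myosin of leukocytes, was likewise below the limit in saline lung, at 1.72, 5.74 and 17.4, against 111, 119.9 and 185 in agonist lung. That is at least 3.02-fold higher (adjusted p = 0.129), and the OVA arrays read 146, 56.0 and 127. Without saline replicate 3 the Myo1f difference passed (adjusted p = 0.04, with a range of 0.04 to 0.345 over the settings tried).

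Was and Myo1f belong to a list of 30 tested actin regulators of blood cells. In 7 of the 30 (23.3%) all agonist arrays were above all saline arrays, beside 6.65% of all tested probe sets, and in none were they below. Was was the 1 member that passed. The list's median log2 change was 0.23, and by array it was 0.07, 0.15 and 0.64 for agonist replicates 1, 2 and 3. Lcp1, which bundles actin in leukocytes, read 791, 793 and 801 in saline and 1003, 881 and 1506 in agonist lung (log2 0.47, adjusted p = 0.605). Pstpip1, a scaffold that binds the Was protein, read 30.1, 34.7 and 51.3 and 78.0, 52.0 and 87.1. With 2 saline arrays below the detection limit, its log2 change was 0.91 as fitted (adjusted p = 0.431) and 0.59 once values below the limit were raised to it. Was, Myo1f, Lcp1 and Pstpip1 were each higher on all 3 agonist arrays. For Lcp1 agonist replicate 3 was the farthest above saline, and its second probe set overlapped between the groups. For Pstpip1 agonist replicate 2, at 52.0, was just above the highest saline array, at 51.3.

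Of the 51 gene lists, 49 had no member that passed. The lists are therefore described by how many members did not overlap between the groups, read against 6.65% higher and 7.03% lower among all tested probe sets, and by their median log2 change, read against the median of -0.003 for all. In every list a gene counts once, by its brightest probe set, and other probe sets of that gene can differ. The members named below were not among the 6 calls, and several were picked after their values were seen because their groups did not overlap. Medians over tested members moved by at most 0.06 under quantile normalization or equal medians, and the sign differed in 3 lists, all with a median within 0.01 of 0.

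**Figure D3:**
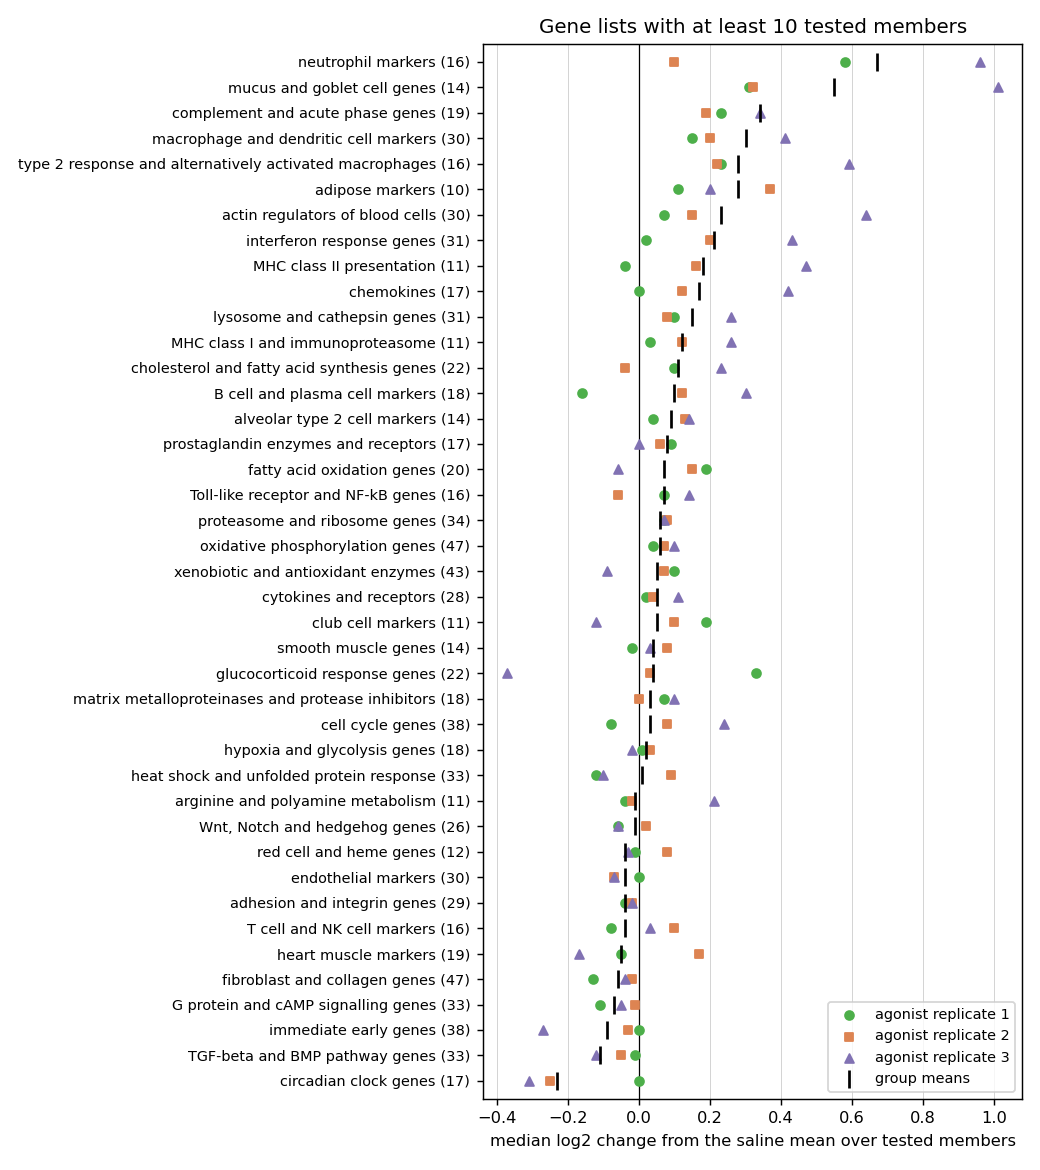
Median log2 change from the saline mean over the tested members of each gene list with at least 10 tested members (number in brackets), separately for agonist replicates 1, 2 and 3 and, as a black bar, for the group means. Neutrophil markers (0.67) and mucus genes (0.55) have the highest medians, circadian clock genes (-0.23) the lowest, and agonist replicate 3 lies farthest from 0 in most of the inflammatory lists.

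Of 14 tested mucus and goblet cell genes, 5 (35.7%) had all agonist arrays above saline, to very different degrees, and none had them below. No member passed the test. The median log2 change was 0.55, or 0.35 without agonist replicate 3. Clca1, a secreted goblet cell protein, read 63.2, 61.3 and 47.8 in saline lung and 257, 645 and 5194 in agonist replicates 1, 2 and 3. The lowest agonist array was several times the highest saline array, and agonist replicate 3 came close to the OVA arrays, which read 5529, 7001 and 5967. With that spread the log2 change of 4.06 had an SE of 0.93 and did not pass (adjusted p = 0.366).

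Bpifb1, a secreted airway protein of the BPI fold family, followed the same order of arrays, at 677, 752 and 636 in saline and 1148, 1563 and 2173 in agonist lung (log2 1.20, adjusted p = 0.257). Pigr, which carries polymeric antibodies across epithelium, read 532, 524 and 513 and 579, 697 and 1503, so that agonist replicates 1 and 2 lay close to saline and replicate 3 well above. The membrane mucin Muc1 was more even, at 1482, 1447 and 1618 and 1738, 1730.1 and 1812 (log2 0.22, adjusted p = 0.581). Gcnt1, which branches mucin-type sugar chains, read 58.8, 58.4 and 53.0 and 83.0, 70.3 and 71.5. In contrast Agr2, a goblet cell disulfide isomerase, read 21.6, 39.8 and 91.0 in agonist lung against 301, 235 and 154 in OVA lung, and only 1 agonist array exceeded the detection limit. Tff2, a trefoil peptide of mucus, overlapped saline lung at 52.1, 90.1 and 83.0 against 70.3, 212 and 469.6.

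In 6 of 16 tested genes of alternatively activated macrophages and type 2 inflammation (37.5%) the agonist arrays were all higher, but 2 of the 6, Alox15 and Ccl17, were below the detection limit on all saline and agonist arrays. The median was 0.28, and 0.12 without agonist replicate 3. The chitinase-like protein Chil3 read 1638, 1783 and 1705 in saline, 2290.0, 2184 and 4871 in agonist and 5303, 6145 and 5401 in OVA lung (agonist against saline log2 0.76, adjusted p = 0.597). Mmp12, the macrophage elastase, read 122, 74.9 and 155 in saline and 266, 207 and 460.4 in agonist lung (log2 1.39, adjusted p = 0.409), far below the OVA arrays at 2119, 2333 and 1685. The inhibitory antibody receptor Fcgr2b read 38.7, 47.9 and 38.6 and 55.3, 56.3 and 117. Arg1, the arginase of these macrophages, exceeded the detection limit on agonist replicate 3 alone, at 14.6, 21.9 and 75.9, with OVA arrays at 632, 714 and 136. Alox15, a lipoxygenase, and Ccl17, a chemokine for T cells, were tested through the OVA arrays, on which they reached 213, 273 and 106 and 655, 657 and 427. No difference between agonist and saline lung can be read from them.

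Among 17 tested chemokines, 4 had all agonist arrays above saline (23.5%), one of them Ccl17 below the limit. Ccl6, a CC chemokine of macrophages, read 459.6, 459 and 516 in saline and 639.9, 599.6 and 936 in agonist lung (log2 0.57, adjusted p = 0.499). Ccl9, of the same family, read 83.4, 28.6 and 69.6 and 123, 129.9 and 370.0. Ccl8, which attracts monocytes and eosinophils, read 50.4, 35.8 and 40.2 and 139, 50.7 and 575 with agonist replicate 2 just above saline, and the OVA arrays read 1266, 1071 and 701. The list's median was 0.17 with all arrays and -0.01 without agonist replicate 3.

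Of 30 tested macrophage and dendritic cell markers 12 (40%) had all agonist arrays above saline and none below, and none passed, with a median of 0.30, or 0.14 without agonist replicate 3. A probe set of the listed gene Flt3, other than its brightest, did lie wholly below saline. The summed intensity of the list was 18240 to 19410 in saline, 23930 to 24910 in OVA and 20270, 20680 and 23810 in agonist replicates 1, 2 and 3. The 3 chains of C1q, the opening component of the classical complement pathway and largely a macrophage product, lay above saline together. C1qa read 164, 213 and 190.4 in saline and 293, 274 and 499 in agonist lung (log2 0.87, adjusted p = 0.423). C1qb read 132, 145 and 129 and 193, 173 and 367, and C1qc 344, 327 and 305 and 403, 437 and 830.5. Agonist replicate 3 was the highest of the agonist arrays for each chain and remained below all OVA arrays, which for C1qa read 835, 844 and 762. A second C1qb probe set overlapped between the groups and leaned the other way, at 187, 256 and 206 in saline and 121, 183 and 199 in agonist lung (log2 -0.39). Lgals3, a galectin of activated macrophages, read 323, 355 and 330.2 in saline and 526, 432 and 715 in agonist lung (log2 0.70, adjusted p = 0.409), and Tyrobp, an adaptor of myeloid receptors, 381, 377 and 327 and 555, 457 and 749 (log2 0.67, adjusted p = 0.432). Both differences were seen on all 3 arrays. Lyz2, lysozyme of macrophages and alveolar type 2 cells, read 5148, 5884 and 5727 in saline, 3637, 4208 and 4645 in OVA and 6099, 6343 and 6062 in agonist lung, so the agonist arrays were the highest of the 9.

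Of 19 tested complement and acute phase genes 7 (36.8%) lay wholly above saline. These included the 3 C1q chains and also Saa3, which was below the detection limit on 5 of the 6 arrays. The median was 0.34, or 0.23 without agonist replicate 3. Properdin, Cfp, which stabilises the alternative pathway convertase, read 48.3, 43.8 and 56.5 and 72.2, 58.9 and 99.9. The acute phase glycoprotein Lrg1 read 315, 387 and 355 and 508, 401 and 916, and Itih4, an inter-alpha-trypsin inhibitor chain, 119.9, 135 and 113 and 146, 153 and 209. The serum amyloid gene Saa3 read 2.22, 13.4 and 363 in agonist lung. Reg3g, an antibacterial lectin of epithelium that was in none of the lists, read 133, 123 and 115 in saline, 255, 347 and 766 in agonist and 965, 1058 and 744 in OVA lung (agonist against saline log2 1.72, adjusted p = 0.322).

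Of 31 tested lysosomal genes 10 (32.3%) lay wholly above saline and none below, with a median log2 change of 0.15. The cathepsins Ctsb, Ctsd, Ctsk and Ctsz are 4 of these 10 and are also among the 12 macrophage members. Ctsz read 257, 258 and 268 in saline and 300.1, 327 and 413 in agonist lung (log2 0.40, adjusted p = 0.529). Ctsk read 146, 179 and 97.6 and 184, 197 and 251, and Gusb, beta-glucuronidase, 183, 169 and 195 and 238, 226 and 299. Hexa, a hexosaminidase subunit, was among the most even, at 215, 237 and 245 and 268, 271 and 293 (log2 0.26, adjusted p = 0.529).

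Neutrophil genes split the agonist arrays in another way. S100a9, a calcium-binding protein that fills the neutrophil cytoplasm, read 119.8, 126 and 98.0 in saline, 152, 98.3 and 101 in OVA and 1542, 128 and 1180.5 in agonist replicates 1, 2 and 3. Its partner S100a8 read 403, 259 and 314 in saline, 421, 323 and 281 in OVA and 2281, 287 and 2026 in agonist lung. Agonist replicates 1 and 3 were thus several times above all other arrays, and agonist replicate 2 lay with saline and OVA lung. With all arrays the log2 changes of 2.43 for S100a9 and 1.78 for S100a8 did not pass (adjusted p = 0.535 and 0.62). Without agonist replicate 2 they were 3.56 and 2.75 and passed (adjusted p = 0.00292 and 0.0131); over all settings the adjusted p ran from 0.00292 to 0.815 and from 0.0131 to 0.822.

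In several other genes, most of them of circulating neutrophils, agonist replicate 2 was also the lowest agonist array. Replicates 1 and 3 did not always stand above OVA lung in them. Slfn4, a Schlafen family gene of myeloid cells, read 96.2, 76.2 and 94.0 in saline and 457, 99.1 and 671 in agonist lung. Slfn4 is not in the neutrophil list and was named after its values were seen. Il1b, the inflammatory cytokine, read 30.6, -3.08 and -0.364 in saline, 88.9, 73.5 and 33.0 in OVA and 197, 12.5 and 89.9 in agonist lung. Its agonist replicate 3 was thus level with OVA replicate 1. Cxcr2, the neutrophil chemokine receptor, read 31.7, 30.7 and 28.5 in saline and 91.2, 30.6 and 143 in agonist lung. One of 3 probe sets for Csf3r, the receptor for granulocyte colony-stimulating factor, read 85.2, 61.3 and 80.1 in saline and 334, 59.2 and 290 in agonist lung. Another read 322, 350.1 and 325 and 418, 313 and 371, with OVA replicate 2 at 372. The third read 28.9, 32.4 and -38.5 and 203, -59.5 and 78.0. In each the groups overlapped and agonist replicate 2 was the lowest agonist array. Mmp9, a gelatinase stored in neutrophil granules, was above saline on every agonist array, at 77.0, 106 and 60.9 against 246, 134 and 210.3, and lowest on agonist replicate 2 (log2 1.27, adjusted p = 0.432). Msrb1, a methionine sulfoxide reductase, is likewise not in the neutrophil list. It also lay above saline on every array with agonist replicate 2 the lowest, at 325, 324 and 347 against 783, 492 and 830.0. The OVA arrays for Msrb1 were above saline as well, at 562, 682 and 595. Over the whole list 5 of 16 tested neutrophil markers (31.2%) had all agonist arrays above saline. Its summed intensity was 7240 to 8242 in saline, 8221 to 9954 in OVA and 13360, 8437 and 13080 in agonist replicates 1, 2 and 3, and its median change by array was 0.58, 0.10 and 0.96. Among genes of neutrophil precursors, Mpo and Ctsg were below the detection limit or within 1 unit of it on every array. No pattern can be read from them. The elastase gene Elane read 89.8, 76.1 and 98.7 in saline and 74.9, 92.5 and 74.8 in agonist lung, with agonist replicate 2 the highest agonist array. Prtn3 read 54.5, 57.8 and 23.3 in saline and 27.8, 45.4 and 46.8 in agonist lung, with agonist replicate 1 the lowest. Of other listed markers, Ngp and Ly6g were below the limit on every array. Camp read 224, 375 and 273 in saline and 274, 347 and 388 in agonist lung, and agonist replicate 2 was not the lowest. Ltf was among the 5 members wholly above saline.

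**Figure D4:**
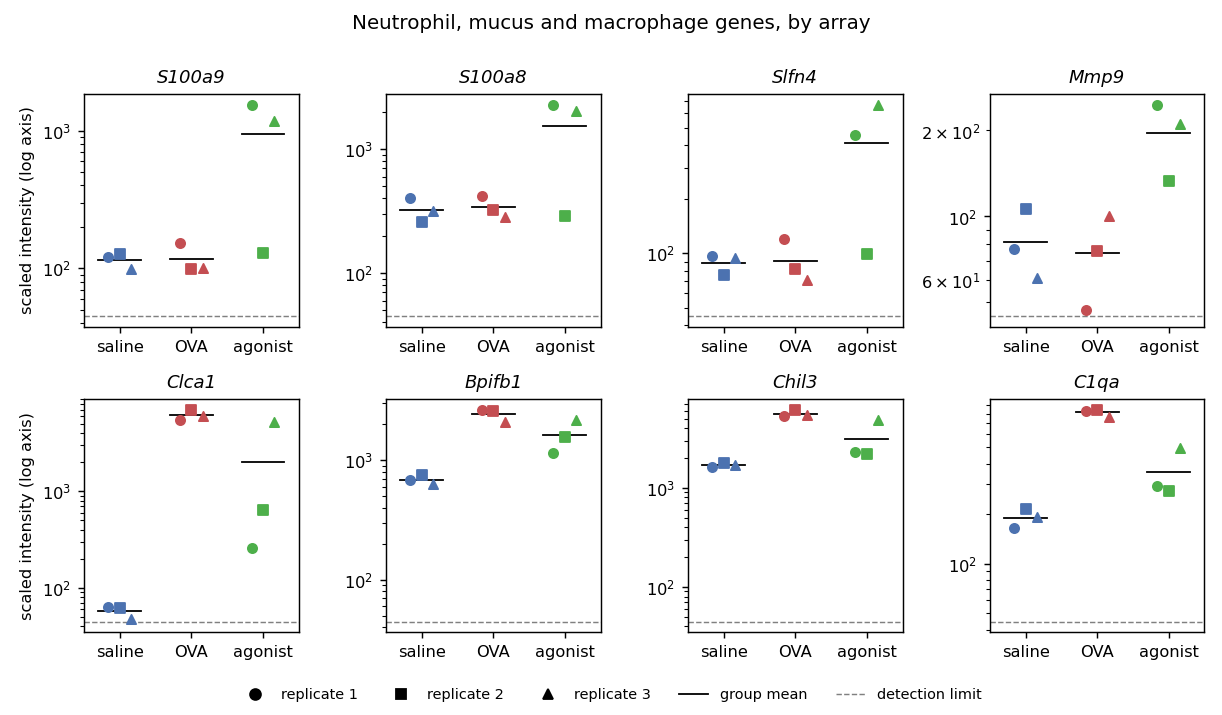
Scaled intensity (y axis, log scale) of 8 genes in the 3 saline, 3 OVA and 3 agonist arrays, with symbols for replicate numbers and lines at group means. In S100a9, S100a8 and Slfn4 agonist replicates 1 and 3 stand above all other arrays and replicate 2 does not; in Clca1, Bpifb1, Chil3 and C1qa agonist replicate 3 is the highest agonist array.

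Of 31 tested interferon-induced genes 9 (29.0%) had all agonist arrays higher and none lower, and the median was 0.21, or 0.15 without agonist replicate 3. Iigp1, an immunity-related GTPase, read 213, 194 and 247 in saline and 264, 419 and 303 in agonist lung, with agonist replicate 2 the highest (log2 0.57, adjusted p = 0.694). A second Iigp1 probe set overlapped between the groups. Ifit3 read 113, 90.4 and 85.5 and 114, 166 and 134, and Rsad2, an antiviral enzyme, 64.5, 69.7 and 60.7 and 78.6, 83.9 and 87.5 (log2 0.36, adjusted p = 0.409). Ifit2 was below the limit in saline lung and above it on all agonist arrays, at 56.1, 52.7 and 73.4, at least 1.34-fold higher. Class I antigen processing went the same way in 4 of 11 tested genes (36.4%). These were the immunoproteasome subunit Psmb9, at 112, 71.9 and 43.0 in saline and 120.0, 149 and 163 in agonist lung, the peptide transporter genes Tap1 and Tap2, and Tapbp. Tap1 read 311, 318 and 311 and 321, 385 and 374, and Tap2 160.1, 154 and 152 and 164, 176 and 186, so these differences were small. A pair of further Tapbp probe sets overlapped between the groups. Of 11 tested class II genes 1 (9.09%) lay wholly above saline: Ifi30, a thiol reductase of antigen processing, whose lowest agonist array exceeded its highest saline array by little (log2 0.40, adjusted p = 0.688). The class II chains overlapped saline lung. H2-Ab1 read 778, 634 and 463 in saline, 1704, 1740.1 and 1727 in OVA and 604, 797 and 916 in agonist lung, and H2-Aa 1630.4, 1669 and 1374, 3207, 3353 and 3248 and 1505, 1733 and 2149.

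A set of cytosolic chaperones lay below saline lung. Heat shock proteins of the Hsp70 family fold client proteins with the help of J-domain partners, and heat shock factor HSF1 induces many of them under stress through short inverted repeats upstream of the gene. Stretches upstream of Hspa1a and Dnaja1, which were lower, and of the mitochondrial chaperonin gene Hspd1, which overlapped saline lung, are shown to make that repeat visible, 150 to 51 bases before the transcription start, from RefSeq promoters of GRCm38.p6. The capitals mark each match to GAANNTTC or TTCNNGAA; both motifs read the same on either strand, and they can overlap. The Hspa1a stretch is chr17:34972207-34972306 on the minus strand, Dnaja1 (1 of 3 listed starts) is chr4:40722318-40722417 on the plus strand, and Hspd1 (1 of 2 starts) is chr1:55087983-55088082 on the minus strand.
Hspa1a: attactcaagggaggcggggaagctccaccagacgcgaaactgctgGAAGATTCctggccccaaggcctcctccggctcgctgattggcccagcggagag
Dnaja1: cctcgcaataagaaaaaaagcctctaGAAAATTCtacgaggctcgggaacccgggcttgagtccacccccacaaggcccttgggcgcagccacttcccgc
Hspd1: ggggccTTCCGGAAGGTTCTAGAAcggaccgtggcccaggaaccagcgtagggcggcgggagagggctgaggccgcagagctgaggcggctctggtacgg

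The match begins 104 bases before the start in Hspa1a and 124 in Dnaja1, and Hspd1 has 3 overlapping matches from base 144. The same stretch of Hspa1b (chr17:34959289-34959388, minus strand) has the same letters as that of Hspa1a, and over the 250 bases before the start the 2 genes share 247. Of 11 chaperone genes looked up, 8 were in the table with 13 starts. In those 250 bases 5 of the 13 starts had a match, those of Hspa1a and Hspa1b being near copies, beside 12.8% of 32851 promoters. A match describes letters in this window only; Dnajb1, Bag3 and Canx had none there.

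Hspa1a, the strongly inducible Hsp70 gene, read 313, 394 and 597 in saline, 268, 277 and 348 in OVA and 99.9, 145 and 77.5 in agonist lung. All agonist arrays lay below all other arrays. Its log2 change of -2.01 (SE 0.29) did not pass (adjusted p = 0.129, and between 0.0539 and 0.386 over the settings tried). Hspa1b, its near-identical neighbour, read 436, 576 and 779.6 in saline and 146, 459 and 142 in agonist lung, so agonist replicate 2 overlapped saline. Without that array Hspa1b passed, at a log2 change of -2.01 (adjusted p = 0.042, with a range of 0.042 to 0.804). Because the transcripts are so alike, the probe sets of Hspa1a and Hspa1b may not be separate measurements.

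J-domain partners were lower on all arrays. Dnajb1 read 234, 228 and 312 in saline and 146, 109.7 and 106 in agonist lung (log2 -1.10, adjusted p = 0.139), against 215, 219 and 234 in OVA lung. Dnajb4, which was in none of the lists, read 111, 89.7 and 118 and 63.8, 58.4 and 63.0 (log2 -0.77, adjusted p = 0.139). Dnaja1 read 767, 683 and 863 and 463, 525 and 526 (log2 -0.61, adjusted p = 0.262). The constitutive Hsp70 gene Hspa8 was close together in saline lung, at 2098, 2118 and 2139.5, and lower and wider in agonist lung, at 1706, 1863 and 1318. The co-chaperone Bag3 read 314, 335 and 409 and 259.7, 296 and 242 and did not separate agonist from OVA lung, which read 273, 259 and 272. The endoplasmic reticulum genes Canx and Manf were lower too. Canx, a lectin chaperone, read 438, 439 and 511 and 312, 342 and 356, but its second probe set overlapped and was not lower. Manf, a factor induced by misfolded protein in the endoplasmic reticulum, read 416, 319 and 525 in saline, 245, 280.4 and 304 in agonist and 793, 700.1 and 562 in OVA lung.

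In all, 7 of 33 tested heat shock and unfolded protein genes (21.2%) had every agonist array below saline, beside 7.03% of all tested probe sets, and none had every array above. The list's median was 0.01. Hsp90aa1, the inducible Hsp90, read 1838, 2039.7 and 2157 and 1781, 2715 and 2062, and the mitochondrial chaperonin Hspd1, whose upstream stretch is shown above with 3 matches, 991, 1065 and 1036 and 951, 1229.9 and 978. For both genes, as for Hspa1b, agonist replicate 2 was the highest of the agonist arrays. Saline replicate 3 was the highest saline array for Hspa1a, Hspa1b, Dnajb1, Dnajb4 and Dnaja1.

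**Figure D5:**
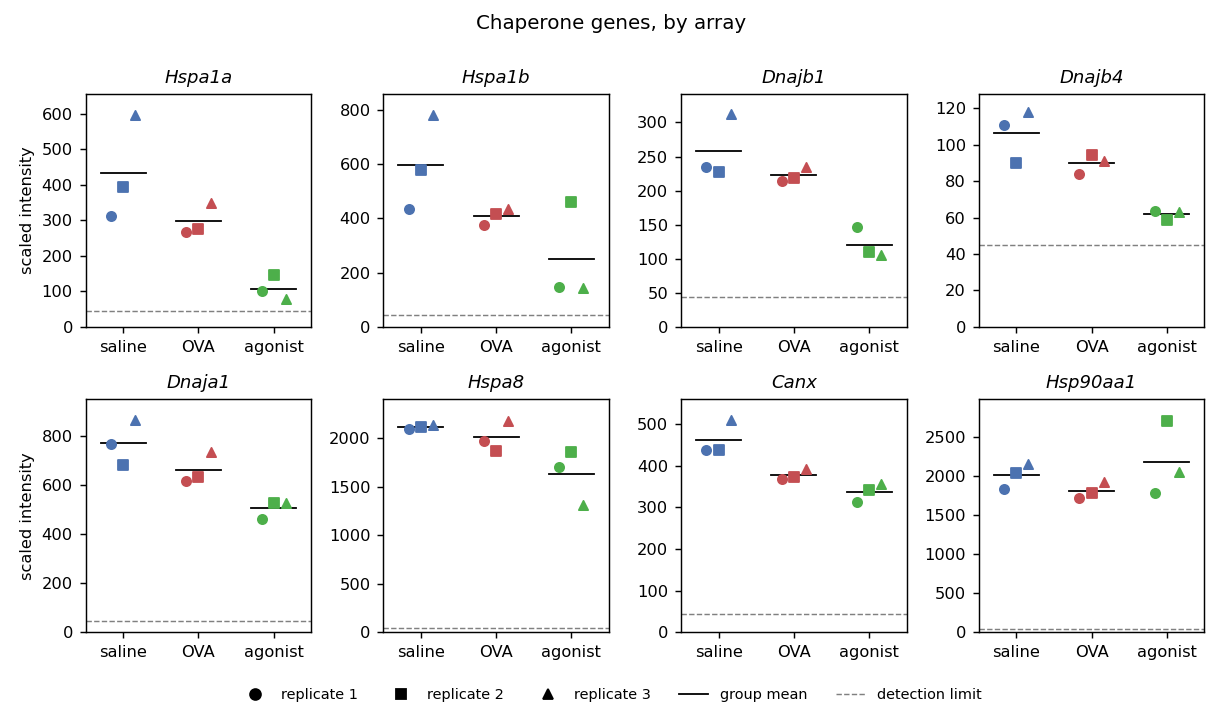
Scaled intensity (y axis, linear from 0) of 8 chaperone genes in the 3 saline, 3 OVA and 3 agonist arrays, with symbols for replicate numbers and lines at group means. Agonist arrays lie below saline arrays for Hspa1a, Dnajb1, Dnajb4, Dnaja1, Hspa8 and Canx, and overlap them for Hspa1b and Hsp90aa1.

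Of 30 tested endothelial genes 5 (16.7%) had all agonist arrays below saline and 1 (3.33%) had them above, with a median log2 change of -0.04. Outside these counts, less bright probe sets of Acvrl1 and Emcn lay wholly below saline and one of Flt4 wholly above. Cdh5, the junctional cadherin of endothelium, read 2405, 2589 and 2581 in saline, 1642, 1739.7 and 1921 in OVA and 2421, 2491 and 2307 in agonist lung. Kdr, the main receptor for VEGF, read 1165, 1174 and 1182 and 986, 1099.7 and 987, a small but even difference (log2 -0.20, adjusted p = 0.642), with OVA arrays lower still at 842, 786 and 746. Sox17, a transcription factor of arterial endothelium, read 498, 437 and 379.7 and 348, 319.7 and 264, and Icam2, an adhesion molecule, 516, 468 and 487 and 416, 454 and 415. A second Sox17 probe set overlapped between the groups. Klf4, a transcription factor induced by shear stress, read 1396, 1545 and 1478 in saline and 1076, 678 and 636 in agonist lung (log2 -0.93, adjusted p = 0.339). It differed from the others in that 2 of the 3 agonist arrays lay below all OVA arrays, which read 928, 960.2 and 1167.

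Klf4 is also an immediate early gene. Of 38 tested genes of that class, 4 (10.5%) had all agonist arrays below saline and 3 (7.89%) had them above. Among all tested probe sets the shares were 7.03% and 6.65%, so neither count was far from the background. Egr2, a zinc finger factor of this class, read 344, 409.9 and 388 in saline and 209, 231 and 208 in agonist lung (log2 -0.82, adjusted p = 0.366). Jun, a subunit of AP-1, read 405, 401 and 418 and 385, 349 and 279.8. In the other direction Sgk1, a kinase induced by glucocorticoids and serum, read 701, 732 and 677 in saline, 713, 698 and 735 in OVA and 919.9, 868 and 906 in agonist lung (log2 0.35, adjusted p = 0.313). Rgs2, which shortens signalling of Gq-coupled receptors, read 259, 197 and 215, 229, 194 and 219 and 280.5, 375 and 379 (agonist against saline log2 0.62, adjusted p = 0.409). In Sgk1 and Rgs2 the agonist arrays lay above all saline and all OVA arrays.

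Matrix genes were lower in few cases. Of 47 tested fibroblast and collagen genes 5 (10.6%) had all agonist arrays below saline and the median was -0.06. Igfbp3, an insulin-like growth factor binding protein, read 236, 178 and 241 in saline and 168, 122 and 72.5 in agonist lung (log2 -0.92, adjusted p = 0.604). Lox, which cross-links collagen and elastin, read 85.1, 81.2 and 133 and 48.2, 74.5 and 71.9. A second probe set of each of these genes overlapped between the groups. The proteoglycan decorin, Dcn, read 1726, 1639 and 1851 and 1561, 1634 and 1373, and periostin, Postn, a matrix protein known as a type 2 target in airway epithelium, 1372, 1260.1 and 1292 and 1191, 1219.5 and 1012.

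Lpl, lipoprotein lipase, read 541, 553 and 523 in saline, 554, 573 and 593 in OVA and 809.8, 742 and 739.6 in agonist lung (log2 0.50, adjusted p = 0.144). The 3 agonist arrays were the highest of all 9, and the second Lpl probe set gave the same order of groups, with a log2 change of 0.57 (adjusted p = 0.211). With no filter on low values the difference passed (adjusted p = 0.0396, with a range of 0.0396 to 0.448 over the settings tried). Lpl is a gene of fat cells and of alveolar macrophages. Of 10 tested adipose markers 4 (40%) lay wholly above saline and 1 (10%), Aqp7, wholly below, and the summed intensity of the list was 2020 to 2124 in saline, 1657 to 1828 in OVA and 2420 to 2651 in agonist lung. Fabp4, a fatty acid binding protein of the same cells, read 99.9, 107 and 84.2 in saline and 126, 224 and 143 in agonist lung, and the hormone gene Adipoq, made by fat cells, 113, 128 and 118 and 132, 208 and 152. Agonist replicate 2 was the highest for Fabp4 and Adipoq but not for Lpl. The part of fat tissue in the Lpl difference was not tested.

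Of 22 tested genes of cholesterol and fatty acid synthesis 4 (18.2%) lay wholly above saline. Fdft1, squalene synthase, read 97.3, 97.6 and 101 in saline and 141, 119.8 and 173 in agonist lung (log2 0.54, adjusted p = 0.409), and Sqle, the next enzyme, 265, 283 and 279 and 338, 285 and 523. Fasn, fatty acid synthase, read 927, 945 and 904 and 1061, 1012 and 1171. Among 43 tested xenobiotic and antioxidant enzymes 3 (6.98%) lay wholly above saline, close to the 6.65% of all probe sets, with a median of 0.05. Gsto1, a glutathione transferase, read 1042, 1033 and 877 in saline and 1302, 1276 and 1634 in agonist lung (log2 0.51, adjusted p = 0.409). Gclc, which makes the first step of glutathione synthesis, read 539, 507 and 424 and 595, 669 and 702. For both, the OVA arrays were higher again, at 1827, 1659 and 1819.7 and 1038, 1076 and 812.

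Of the receptors for prostaglandin E2 only Ptger2 was tested. Ptger2, which raises cyclic AMP, read 46.4, 54.4 and 43.4 in saline, 50.9, 62.2 and 60.5 in OVA and 51.0, 52.7 and 59.6 in agonist lung, close to the detection limit and overlapping (log2 0.18, adjusted p = 0.771). Both probe sets of Ptger3, the gene of the agonist's own receptor, and the probe set of Ptger1 were below the limit on every array. Ptger4 exceeded it only on OVA replicates 1 and 2, at 80.4 and 75.3. Among enzymes, Pla2g4a, the phospholipase that releases arachidonic acid, read 87.1, 74.9 and 84.8 in saline and 103, 102 and 103 in agonist lung (log2 0.32, adjusted p = 0.432). Hpgd, which inactivates prostaglandins, read 1389.9, 1294 and 1499 in saline, 789.9, 805 and 1067 in OVA and 1907, 1555 and 1549 in agonist lung. Ptgds, a prostaglandin D synthase, was below the limit on agonist replicates 1 and 2 and at 67.6 on replicate 3, against 63.0, 77.7 and 102 in saline lung. It passed without agonist replicate 3 (adjusted p = 0.00164, with a range of 0.00164 to 0.815 over the settings tried), but the agonist group was then wholly at the floor, with no spread. With all arrays and values held at the detection limit, its log2 change was -0.63. Ptgfr, the prostaglandin F receptor, read 85.8, 100.1 and 91.6 and 60.3, 60.3 and 74.4 on its brighter probe set, and its other probe set was higher in agonist lung.

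In several lists no tested gene had agonist arrays wholly above or below saline on its brightest probe set. This held for the alveolar type 1 (8 tested), ciliated (6), T and NK cell (16) and heart muscle (19) lists. The same held for the skeletal muscle (9), red cell (12) and Toll-like receptor (16) lists. A probe set of Cav1 other than its brightest lay wholly below saline, and Cav1 is in the alveolar type 1 list. These lists are small, and separation in either direction was seen in 13.7% of all tested probe sets. Of 11 tested club cell markers 1 (9.09%), Gsto1, lay wholly above saline. The club cell enzyme Cyp2f2 overlapped, at 3359, 3881 and 3491 in saline, 1649, 1782 and 2071 in OVA and 3831, 3652 and 2948 in agonist lung. The cardiac myosin gene Myh6 read 315, 324 and 387, 162, 170.0 and 209 and 413, 358 and 298. The plasma cell genes Ighm and Jchain were near saline level on agonist replicates 1 and 2 only, by their brightest probe sets. Ighm, the heavy chain of IgM, read 1177, 1253 and 944 in saline and 913, 1232 and 4797 in agonist lung, and Jchain, the joining chain, 172, 149.9 and 159 and 127, 173 and 771. Other Ighm probe sets differed. One read 173, 166 and 96.0 in saline and 112, 120 and 461 in agonist lung, and another 559, 523 and 292 and 612, 290 and 494. The 3 values per group leave wide limits on such genes, so the overlap does not show that they were equal.

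Circadian clock genes had the lowest median of the larger lists, -0.23 over 17 tested members, or -0.06 without agonist replicate 3. Per1 read 354, 404 and 355 in saline and 466, 289 and 129 in agonist replicates 1, 2 and 3, and Per2 399, 353 and 397 and 428, 315 and 126. The 3 agonist arrays thus differed more among themselves than the saline arrays did. Nr1d1, the nuclear receptor REV-ERB alpha, read 681, 673 and 808 in saline, 272, 257 and 349.6 in OVA and 624, 468 and 625 in agonist lung, below saline on all 3 arrays (log2 -0.34, adjusted p = 0.688). The hour of sampling is not stated in the labels, and its part in these values was not tested.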

How the data were processed

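Total RNA of mouse lung was measured on 9 Affymetrix arrays, 3 per group. The deposited table gives 1 linear intensity per probe set and array, with negative values, which the authors computed by a method not given in the sources used here. Each array was scaled to a common 2% trimmed mean over 12488 probe sets, including 66 controls that were then left out. Values below the 20th percentile of all scaled values (3.10) were raised to it, log2 was taken, and probe sets above the 40th percentile (44.7) on 3 or more of the 9 arrays were kept for testing.

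limma 3.58.1 (R 4.3.3; lmFit, eBayes) fitted 3 group means to all 9 arrays. Two-sided p-values were adjusted by Benjamini-Hochberg over 7920 probe sets. "At least" folds set the brighter group's mean against the detection limit. The fit was tested on simulated data. A platform annotation table named 1 gene for 10833 probe sets, several for 396 and none for 1193; 10817 matched RefSeq genes. A gene is represented by its passing probe set, otherwise its brightest.

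Genes named are up to 25 passing rises and 25 falls, up to 4 members per list, the prostaglandin E2 receptors, and others chosen after their values were seen. The comparison and the 51 lists were chosen with earlier results of these data known. Alternatives changed scaling, floor, filter, model and arrays.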

Additional observations from a re-analysis of the deposited data

How the results depend on the processing

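The count of 6 probe sets became 3 with the filter at the 60th percentile, where 5385 were tested, and 2 with replicate number as a block; the rises numbered 3 and became 0 with that block and 0 when only the 6 arrays compared were fitted. The falls numbered 3 and became 1 with the floor at the 40th percentile, 1 with the filter at the 60th percentile and 5 with no filter. Leaving out 1 array at a time gave 5 to 16 probe sets in all, 1 to 7 higher and 2 to 9 lower; 16 came from leaving out agonist replicate 2 and 9 from leaving out agonist replicate 3, and in each case 4 of the 6 were among them. Deviations of same-numbered saline and agonist arrays from their group means correlated at -0.03, 0.078 and -0.139 over tested probe sets. The manufacturer's control BioC nevertheless followed replicate number, highest on replicate 1 and lowest on replicate 2 in every group. It read 722.7, 408.2 and 607.1 in saline, 582.1, 312.2 and 474 in OVA and 801.1, 363.8 and 603.9 in agonist lung. Whether same-numbered arrays were handled together is not stated in the labels and was not tested. As alternatives chosen after seeing the data, the probe sets with all agonist arrays above saline numbered 792 with no filter and 953 without agonist replicate 3, and those below numbered 977 without it; with 2 arrays instead of 3 more probe sets separate by construction. Equal medians gave 624 above and 444 below. Among the genes whose log2 change is printed, followed by their representative probe set, no direction reversed under the settings tried; genes given by intensities alone were not followed. Was and Aanat lost their calls with the block (adjusted p = 0.126 and 0.0944) and with 6 arrays (0.101 for each). The adjusted p of Was ran from 0.0064 to 0.126 over all settings. That of Aanat ran from 0.00045 to 0.101 over the settings that tested it, which exclude those with a saline array left out. Adipor1 also lost its call with an intensity trend and robust prior (0.083). The cause of these changes was not tested. Signal over background limits Slc25a25, Adipor1 and Aanat in agonist lung, and 3 arrays a group limit the precision of every value.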
